A study of Mus musculus with 6 samples.

Results

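Myt1 encodes a DNA-binding zinc finger protein of neural cells. Genes of the brain extracellular matrix, 10 in number, were followed in newborn spinal cords labelled wild-type or Myt1-/-. They were picked by name: the tenascins Tnr and Tnc, the lecticans Bcan, Ncan, Vcan and Acan, the link protein gene Hapln1, the matrilin gene Matn4, and the chondroitin sulfate proteoglycan genes Ptprz1 and Cspg5. All 10 were found among the 55487 genes of the table, with 1 row each, and all 10 were among the 15962 genes tested. RNA came from the thoracic spinal cord at postnatal day 0, with 3 samples of wild-type mice (WT) and 3 of Myt1-/- mice (the null). The labels name no strain, allele, Cre driver or sex. They do not say whether a sample was 1 animal or a pool, so it is unknown whether the spread behind each p-value is that between animals. Levels are TPM, which scale a gene's reads for transcript length and for the sample's total, so that levels of different genes can be compared. Read numbers are lost in this scaling, and sequencing depth is unknown.

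The matrix of the central nervous system is built on hyaluronan, a long sugar polymer that lecticans bind with their amino-terminal domain. Link proteins lock that bond, and tenascins join the other ends of the lecticans, so that the parts form a mesh around cells and axons. Around some neurons the mesh condenses after birth into perineuronal nets. In the developing cord, astroglia, oligodendrocyte precursors and neurons each supply some of the parts, and several parts slow axon growth or the maturation of oligodendrocytes.

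Of the 10 genes, Tnr and Matn4 were lower in every null sample than in every WT sample, each at a little under 60% of its WT mean. The samples of the genotypes overlapped in the other 8, which were all 4 lecticans, Tnc, Hapln1, Ptprz1 and Cspg5, and did not overlap in 2, beside 14.3% of all genes. No gene of the 15962 passed an adjusted p of 0.05 by limma (0% called), so none of the 10 did either. At an unadjusted p under 0.05, 2 of the 10 (Tnr and Matn4) were lower and 0 were higher, beside 3.13% of all genes lower and 4.32% higher. Both had all null samples under all WT samples, as 5.38% of all genes did, and 0 of the 10 had them above, beside 8.91%. The 10 genes were chosen with earlier results of these data known, so these counts describe the genes and do not test the group.

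The stretches of genome just before the starts of 4 of these genes are given here, because Tnr and Matn4 were lower together while Tnc, the relative of Tnr, and Bcan, a lectican that Tnr binds, were not. Each is the 250 bases before a RefSeq start site on GRCm38.p6, written 5′ to 3′ on the gene's own strand. For Tnr it is chr1:159523519-159523768 (plus strand), for Matn4 chr2:164405161-164405410 (minus strand), for Tnc chr4:64047016-64047265 (minus strand) and for Bcan chr3:88000357-88000606 (minus strand). Capitals mark AAGTT, the core letters of the Myt1 family's motif.
Tnr: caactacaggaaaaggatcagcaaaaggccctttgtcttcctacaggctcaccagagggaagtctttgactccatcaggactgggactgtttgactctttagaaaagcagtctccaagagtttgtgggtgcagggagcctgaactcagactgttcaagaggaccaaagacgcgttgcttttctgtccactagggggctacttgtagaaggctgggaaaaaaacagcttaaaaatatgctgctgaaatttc
Matn4: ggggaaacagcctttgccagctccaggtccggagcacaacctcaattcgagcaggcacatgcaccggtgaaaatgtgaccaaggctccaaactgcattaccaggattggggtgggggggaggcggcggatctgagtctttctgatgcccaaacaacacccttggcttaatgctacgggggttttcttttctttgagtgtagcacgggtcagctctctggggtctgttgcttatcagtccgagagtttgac
Tnc: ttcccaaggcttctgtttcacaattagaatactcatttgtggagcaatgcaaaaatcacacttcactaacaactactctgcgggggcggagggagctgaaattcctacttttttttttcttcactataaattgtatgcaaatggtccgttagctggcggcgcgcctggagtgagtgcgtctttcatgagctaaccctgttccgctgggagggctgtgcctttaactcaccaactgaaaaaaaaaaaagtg
Bcan: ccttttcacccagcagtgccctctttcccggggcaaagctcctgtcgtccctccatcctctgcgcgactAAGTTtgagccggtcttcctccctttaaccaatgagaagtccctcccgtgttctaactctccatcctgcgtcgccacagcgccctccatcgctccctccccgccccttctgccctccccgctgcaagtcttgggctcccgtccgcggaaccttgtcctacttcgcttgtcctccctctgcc

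AAGTT was searched on both strands, together with AACAAAG, the core of a Sox site, and CAGCTG, an E-box of the kind that bHLH factors bind. The RefSeq promoter table held 9 of the 10 genes, with 11 start sites. None of the 3 motifs was found in the windows of Tnr, Matn4 or Tnc. AAGTT was found in 2 of the 9 genes, 181 bases before the RefSeq start of Bcan and 32 bases before that of Hapln1. By GENCODE M21, all 250 bases of the Hapln1 window lie inside that gene, and the window overlaps a Hapln1 exon. CAGCTG was found in Ncan and Acan, and AACAAAG in none. Of all 32851 windows of this length in the table, 35.3% held AAGTT, 5.03% AACAAAG and 13.0% CAGCTG, so these letters are common in such windows. The matches are descriptions of sequence, and their absence in a window says nothing of binding elsewhere.

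**Figure D1:**
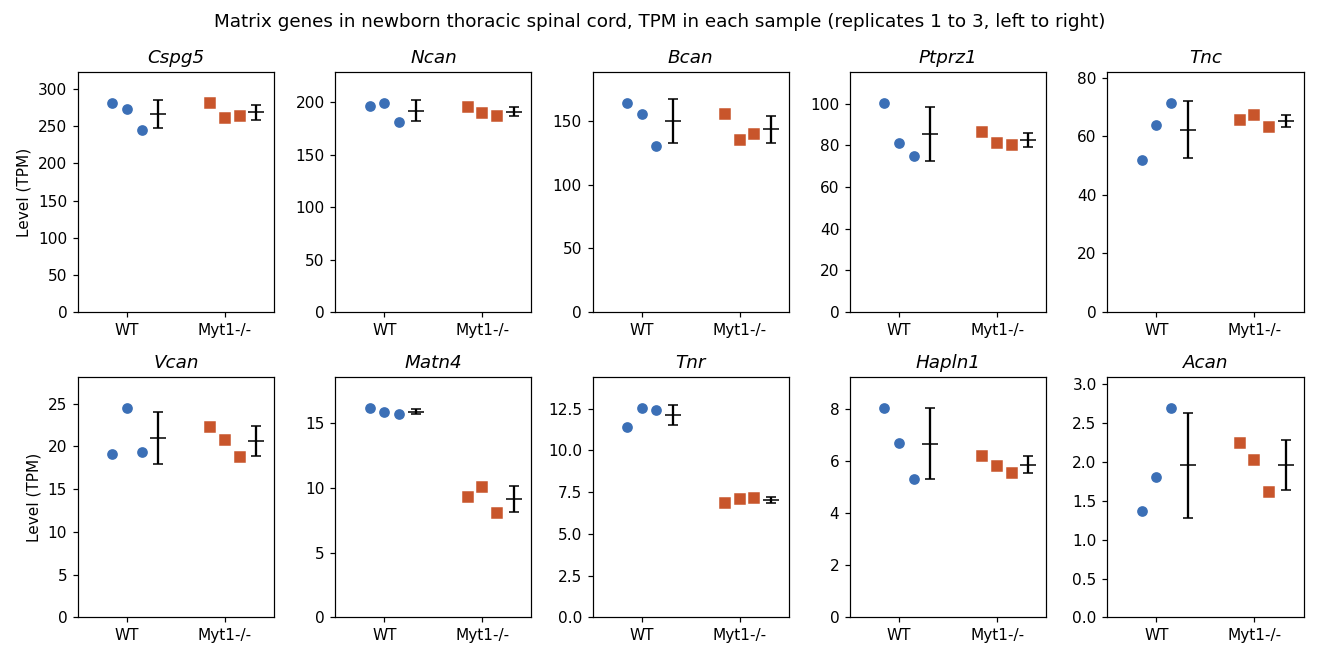
Level of each of the 10 genes in TPM (vertical axes, from 0) in the 3 WT samples (circles) and the 3 null samples (squares), with the mean and SD beside them. Tnr and Matn4 are the genes whose null samples, up to 7.16 and 10.07 TPM, all lie under the WT samples, which start at 11.41 and 15.68 TPM.

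The targeted gene was checked first. Myt1 was at 11.54, 11.53 and 13.61 TPM in WT and at 6.14, 5.36 and 5.28 TPM in the null, where its mean was 45.7% of WT. All null samples were under all WT samples, the direction the labels give. The null still held Myt1 RNA, and the value for the whole gene does not show whether exons were lost. Among the libraries, WT replicate 1 stood apart. Mitochondrially encoded genes made up 11.3% of its TPM, against 8.64% to 9.04% in the others, and its fibroblast markers were the lowest, with a summed level of 1356 TPM against 2398 to 3852 TPM. Counts over all genes moved when this or another library was left out. Without WT replicate 1, 751 genes were lower and 501 higher at an unadjusted p under 0.05, against 499 and 690 with all libraries (58.0% higher, or 45.7% higher after median-ratio scaling). Null replicate 3 had the most skeletal muscle RNA, with summed markers of 161 TPM against 15.3 to 72.1 TPM elsewhere. Summed levels in WT and the null were 5304 to 5566 and 5186 to 5379 TPM for neuron markers (led by Tubb3), which overlapped, 386 to 670 and 260 to 437 TPM for sensory ganglia (led by Prph), 296 to 312 and 285 to 299 TPM for vessels (led by Cldn5), and 184 to 233 and 157 to 190 TPM for microglia (led by C1qb).

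Among the tenascins, the multi-armed matrix glycoproteins that cross-link lecticans, Tnr was lower and Tnc was not. Tnr encodes tenascin-R, made by oligodendrocyte lineage cells and some neurons. It was at 11.41, 12.51 and 12.44 TPM in WT and at 6.82, 7.08 and 7.16 TPM in the null. The groups were far apart, and the null samples differed from each other by less than the WT samples did. It averaged 12.1 ± 0.616 TPM in WT against 7.02 ± 0.178 TPM in the null (SD, n = 3 each), 1.73-fold lower. The log2 difference was -0.71 (SE 0.086, 95% interval -0.92 to -0.50), with an unadjusted p of 9.9e-05 and an adjusted p of 0.177 by limma. By its unadjusted p, Tnr stood at place 8 of the 15962 genes. In tissue RNA, fewer cells of a type and less RNA per cell cannot be told apart.

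Tnc encodes tenascin-C, which radial glia and astrocytes make in the embryonic and newborn cord. It was at 51.76, 63.67 and 71.24 TPM in WT and at 65.36, 67.06 and 63.13 TPM in the null. The null values lay inside the WT range. The log2 difference was 0.078 (95% interval -0.19 to 0.35, adjusted p = 0.872 by limma), and without WT replicate 1 it was -0.047. Of 10 radial glia markers led by Fabp7, none was at 0, and 1 was higher at an unadjusted p under 0.05, beside 4.32% of all genes. They summed to 2534 to 2709 TPM in WT and to 2798 to 2941 TPM in the null, without overlap. Fabp7 alone was at 1577 to 1671 TPM in WT and at 1827 to 1927 TPM in the null. The other 9 genes overlapped between the genotypes. The part of radial glia in the level of Tnc was not tested. Tnr made up 16.5% ± 1.60 of the summed tenascin-R and tenascin-C transcripts in WT against 9.73% ± 0.400 in the null (SD, n = 3 each). Its share ran from 14.9% to 18.1% in the WT libraries and from 9.45% to 10.2% in the null libraries, without overlap.

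Matn4 encodes matrilin-4, an adaptor protein of matrix filaments and a transcript typical of oligodendrocyte precursors. It was at 16.11, 15.83 and 15.68 TPM in WT and at 9.29, 10.07 and 8.04 TPM in the null. The WT samples were nearly equal, and all null samples were well below them, with replicate 3 the lowest. It averaged 15.9 ± 0.218 TPM in WT against 9.13 ± 1.02 TPM in the null (SD, n = 3 each), 1.74-fold lower. The log2 difference was -0.74 (SE 0.098, 95% interval -0.97 to -0.51), with an unadjusted p of 0.000163 and an adjusted p of 0.231 by limma, place 11 of the 15962 genes. With 1 library left out, the log2 difference lay between -0.75 and -0.69 for Tnr and between -0.81 and -0.66 for Matn4.

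**Figure D2:**
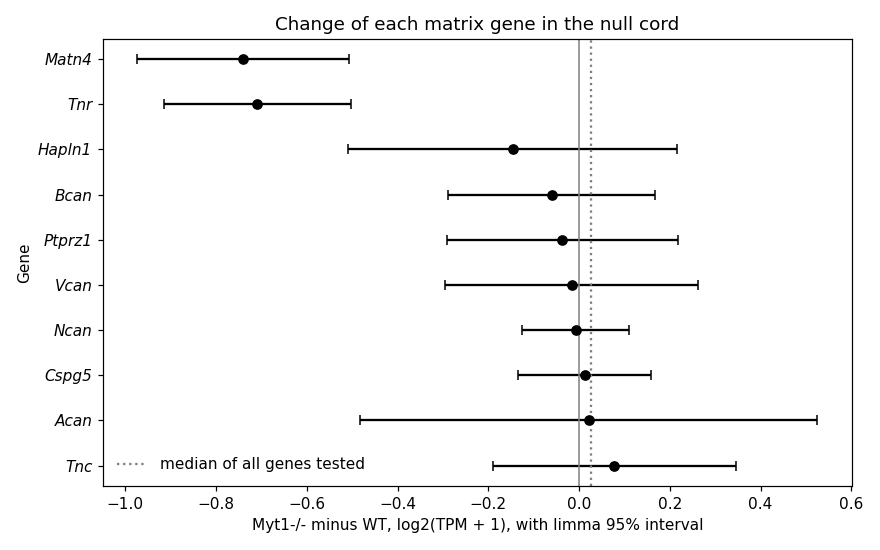
Difference between null and WT for each of the 10 genes on the log2(TPM + 1) scale (horizontal axis), with the 95% interval from limma; the dotted line is the median of all genes tested, 0.025. The intervals of Matn4 and Tnr lie below -0.50, and those of the other 8 genes hold 0.

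The lecticans, proteoglycans that tie hyaluronan to tenascins, had the same order and nearly the same proportions in both genotypes. Ncan encodes neurocan, a lectican of the nervous system made by neurons and astrocytes. It was at 196.13, 199.21 and 181.02 TPM in WT and at 195.73, 189.82 and 187.46 TPM in the null. Its log2 difference was -0.0074 with a 95% interval of -0.13 to 0.11, the narrowest of the 10. Bcan encodes brevican, which glia secrete or anchor to the membrane. It was at 164.09, 155.73 and 130.69 TPM in WT and at 155.29, 135.41 and 140.11 TPM in the null. The null values again lay inside the WT range, with a log2 difference of -0.060 (95% interval -0.29 to 0.17).

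Vcan encodes versican, the lectican of many embryonic tissues, whose spliced forms the gene-level value does not separate. It was at 19.08, 24.44 and 19.31 TPM in WT and at 22.31, 20.79 and 18.75 TPM in the null, overlapping, with a log2 difference of -0.016 (95% interval -0.30 to 0.26). Acan encodes aggrecan, the main lectican of cartilage and, later in life, of perineuronal nets. It was at 1.37, 1.81 and 2.69 TPM in WT and at 2.25, 2.03 and 1.61 TPM in the null. Its log2 difference was 0.022 with a 95% interval of -0.48 to 0.53, the widest of the 10. The adjusted p by limma was 0.976 for Ncan, 0.887 for Bcan, 0.977 for Vcan and 0.983 for Acan. As a share of summed lectican TPM, Ncan made up 52.7% in WT and 53.5% in the null, Bcan 41.0% and 40.2%, Vcan 5.74% and 5.77%, and Acan 0.547% and 0.548%. The 4 together came to 365 ± 27.3 TPM in WT against 357 ± 15.9 TPM in the null (SD, n = 3 each).

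Hapln1 encodes the link protein that fastens lecticans to hyaluronan. It was at 8.03, 6.71 and 5.30 TPM in WT and at 6.22, 5.83 and 5.56 TPM in the null. The WT samples spread on both sides of the null samples. The log2 difference was -0.15 (95% interval -0.51 to 0.22, adjusted p = 0.823 by limma). On chromosome 13 (GRCm38) Hapln1 (89539796 to 89611652, plus strand) and Vcan (89655312 to 89742509, minus strand) are neighbours with 43659 bases between them, and neither differed beyond its spread.

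Ptprz1 encodes a receptor phosphatase of glia whose shed or spliced ectodomain, phosphacan, is a proteoglycan that binds tenascins. It was at 100.22, 81.30 and 74.87 TPM in WT and at 86.53, 81.23 and 80.35 TPM in the null. WT replicate 1 was the highest of the 6, and the other samples were close together. The log2 difference was -0.037 (95% interval -0.29 to 0.22, adjusted p = 0.944 by limma), and without WT replicate 1 it was 0.082. Cspg5 encodes neuroglycan C, a membrane proteoglycan with an EGF-like domain. It was the most abundant of the 10, at 281.00, 273.43 and 245.51 TPM in WT and at 280.77, 261.40 and 263.72 TPM in the null. Its groups overlapped, with a log2 difference of 0.012 (95% interval -0.13 to 0.16, adjusted p = 0.965 by limma), or -0.013 after median-ratio and -0.0016 after upper-quartile scaling.

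In WT the levels ran, from high to low, Cspg5, Ncan, Bcan, Ptprz1, Tnc, Vcan, Matn4, Tnr, Hapln1 and Acan, and the null means had the same order. No pair of neighbours in that order overlapped over the 3 WT samples. The narrowest step in WT was between Ncan and Bcan, at 1.28-fold, and the widest between Hapln1 and Acan, at 3.41-fold. In the null the step from Vcan down to Matn4 was 2.26-fold, against 1.32-fold in WT, and the step from Tnr down to Hapln1 was 1.20-fold, against 1.81-fold. The SD between samples was larger in WT than in the null for 9 of the 10 genes, the exception being Matn4. The coefficient of variation in WT ran from 1.37% for Matn4 to 34.3% for Acan.

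The WT samples differed from each other in a way that several of the genes followed. Of 10 astrocyte markers led by Aldoc, none was at 0 in any sample. At an unadjusted p under 0.05, 3 of them were lower in the null, beside 3.13% of all genes. Their summed levels were 2153, 2085 and 1713 TPM in WT replicates 1 to 3 and 1562 to 1816 TPM in the null. Bcan, Ptprz1, Cspg5 and Hapln1 had, like these sums, their highest WT value in replicate 1 and their lowest in replicate 3. Summed markers of myelinating oligodendrocytes had this order too, at 808, 586 and 390 TPM. Tnc and Acan had the reverse, with their lowest value in replicate 1. The summed fibroblast markers (10 genes led by Igf2, none at 0, 0 with an unadjusted p under 0.05) did too, at 1356, 3148 and 3852 TPM in WT and 2398 to 2643 TPM in the null. Radial glia sums also rose over WT replicates 1 to 3, at 2534, 2634 and 2709 TPM. So did skeletal muscle sums, at 15.3, 19.2 and 72.1 TPM. Cartilage and notochord markers (12 genes led by Col9a2, of which 8 were tested and Snorc was at 0 in 1 null sample) summed to 98.2, 104 and 121 TPM in WT and to 89.3 to 94.2 TPM in the null. Col2a1, the collagen that defines cartilage, was at 2.62, 3.82 and 8.99 TPM in WT and at 2.54, 2.74 and 2.09 TPM in the null. The part of these cell types in the levels of Bcan, Ptprz1, Cspg5, Hapln1, Tnc and Acan was not tested.

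Tnr and Matn4 are typical of the oligodendrocyte lineage, so they were set beside genes of its stages. Precursor markers (10 genes led by Olig1, none at 0, 3 lower and 1 higher at an unadjusted p under 0.05) had overlapping summed levels, 416 to 476 TPM in WT and 446 to 494 TPM in the null, and a median log2 difference of -0.0060. Over all genes tested, 3.13% were lower and 4.32% higher at an unadjusted p under 0.05, and 14.3% did not overlap. Pdgfra is a receptor used here as a precursor marker. It was at 46.96, 55.57 and 52.38 TPM in WT and at 51.36, 45.05 and 44.17 TPM in the null. Its groups overlapped, and so did those of Cspg4, Olig2, Lhfpl3, C1ql1 and Cacng4. The other 4 did not. Gpr37l1, a receptor that astrocytes also express, was at 12.61, 14.69 and 7.70 TPM in WT and at 7.19, 5.63 and 5.88 TPM in the null, 53.4% of the WT mean. Sox10 was at 70.7% and Sox8 at 82.6%, both transcription factors of the whole lineage, while Olig1, another of its transcription factors, was at 127%. All 4 had an adjusted p of 0.669 by limma. Relative to WT, Gpr37l1 was thus a little lower than Tnr and Matn4, and the other 9 precursor markers were higher than both. Markers of committed and premyelinating cells (10 genes led by Sox4, 7 of 9 tested lower and 1 higher at an unadjusted p under 0.05, Neu4 at 0 in 1 null sample) summed to 227 to 269 TPM in WT and 163 to 167 TPM in the null, and those of myelinating cells (10 genes led by Mbp, 8 of 9 tested lower, Opalin at 0.05 TPM or less) to 390 to 808 TPM and 159 to 194 TPM. Neither of these sums overlapped between the genotypes. Sox4 alone was at 63.50 to 72.89 TPM in WT and at 82.31 to 92.32 TPM in the null. It thus held a large part of the committed sum and ran against it. Gpr17, a receptor of committed precursors, was at 53.0% of its WT mean in the null, close to the 57.9% of Tnr and the 57.5% of Matn4. Bcas1, of cells starting to myelinate, was at 17.5% and Mbp, of myelin, at 14.2%. The genes of each list differed widely, so closeness to 1 of them does not place Tnr and Matn4 at a stage. Null means ran from 4.52% of WT (Enpp6) to 126% (Sox4) in the committed list. In the myelinating list they ran from 2.44% (Mobp) to 102% (Mog). Mbp was at 477.42, 313.80 and 167.93 TPM in the WT samples, a spread that Tnr and Matn4 did not share. Schwann cell markers (10 genes led by Mbp, none at 0, 5 lower at an unadjusted p under 0.05) also summed lower in the null, at 124 to 191 TPM against 371 to 729 TPM. Mbp is in both this list and the myelinating list. Without it, the Schwann cell sums were 251, 137 and 203 TPM in WT and, in the null, 136, 88.1 and 83.0 TPM, so that the groups nearly met. The part of Schwann cells in the levels of Tnr and Matn4 was not tested.

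**Figure D3:**
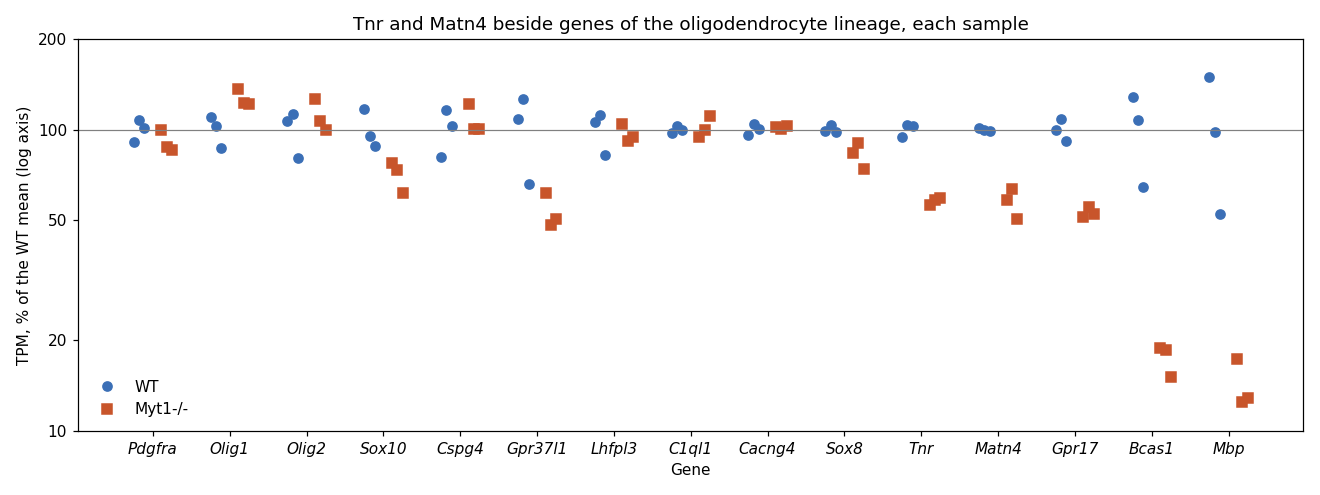
TPM of each sample as a percentage of the gene's WT mean (vertical axis, log scale) for the 10 precursor markers (Pdgfra to Sox8), for Tnr and Matn4, for Gpr17 of committed precursors, Bcas1 of premyelinating cells and Mbp of myelin; circles are WT and squares null samples. The null means of precursor markers run from 53.4% (Gpr37l1) to 127% (Olig1), those of Tnr and Matn4 are 57.9% and 57.5%, and those of Bcas1 and Mbp are 17.5% and 14.2%.

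Ratios of TPM + 1 of 2 genes within a library depend little on how the library was scaled. The log2 ratio of Tnr to Tnc was -2.09, -2.26 and -2.43 in WT and -3.09, -3.07 and -2.97 in the null, a difference of -0.79. That of Tnr to Pdgfra was -1.95, -2.07 and -1.99 in WT and -2.74, -2.51 and -2.47 in the null, a difference of -0.57. That of Matn4 to Pdgfra was -1.49, -1.75 and -1.68 in WT and -2.35, -2.06 and -2.32 in the null, a difference of -0.60. None of these 3 ratios overlapped between the genotypes. Pdgfra was the only precursor marker used as a denominator, and the part of other cell types in its level was not tested. Bcan to Ncan, with means of -0.36 ± 0.11 in WT against -0.41 ± 0.076 in the null, and Acan to Vcan, with -2.91 ± 0.39 and -2.87 ± 0.044 (SD, n = 3 each), did overlap. The exact two-sided permutation p was 0.1 for the first 3 ratios (adjusted over the 5 ratios, 0.167), 0.6 for Bcan to Ncan and 1 for Acan to Vcan. With 3 samples against 3, no such p can go below 0.1, so the design could not reach 0.05.

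**Figure D4:**
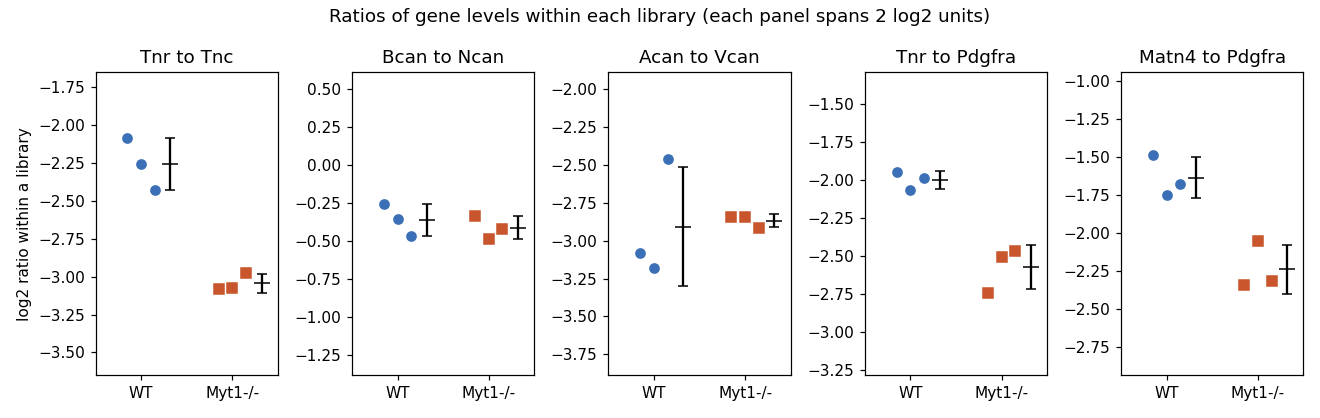
Log2 ratio of the TPM + 1 of 2 genes within each library (vertical axes, all spanning the same range) in WT (circles) and null samples (squares), with mean and SD. The 3 ratios with Tnr or Matn4 on top are lower in all null libraries, by 0.57 to 0.79, and the lectican pairs overlap.

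Which other genes ran most like these 2 over the 6 samples was described by the root mean square difference of log2(TPM + 1), each gene centred on its own mean. The 3 genes nearest to Tnr were Vxn (0.10), Cdk18, which encodes a cyclin-dependent kinase relative (0.10), and Matn4 (0.11). Those nearest to Matn4 were Tnr (0.11), Gm20687 (0.11) and Parvb, which encodes a parvin of integrin adhesions (0.12). Vxn was at 49.2 ± 4.86 TPM in WT against 31.6 ± 1.63 TPM in the null, and Parvb at 31.8 ± 1.29 and 21.6 ± 1.17 TPM (SD, n = 3 each). All 4 lay below every WT sample in the null, as a gene near Tnr or Matn4 by this measure must tend to.

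Tnr and Matn4 each share exonic bases with another gene. Matn4 (chromosome 2, 164389393 to 164405160, minus strand, GRCm38) shares 149 exonic bases, 2.88% of its own, with Rbpjl on the other strand, and the window printed for Matn4 also overlaps a Rbpjl exon for which no coding sequence is annotated. Rbpjl was at 0.28 to 0.40 TPM in WT and 0.19 to 0.28 TPM in the null. Tnr (chromosome 1, 159523769 to 159931729, plus strand) shares 443 exonic bases, 3.44% of its own, with the antisense gene Gm38039. That gene was at 0, 5.38 and 1.04 TPM in WT and at 1.32, 0.48 and 0 TPM in the null, overlapping, with its highest value in the WT replicate where Tnr was 12.51 TPM. The sources used here do not say whether counting used strand, so reads in the shared bases cannot be assigned.

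The partners and enzymes of these matrix proteins were described from 7 lists with 91 genes, of which 87 were tested. None passed an adjusted p of 0.05. At an unadjusted p under 0.05, 6 of the 87 were lower, beside 3.13% of all genes, and 3 were higher, beside 4.32%. Together they were 10.3%, beside 7.45% of all genes. The median log2 difference was -0.042, beside 0.025 for all genes tested. The lists were chosen with earlier results of these data known, so the counts are descriptions and the genes are given as values.

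Of 8 other tenascin, link protein and matrilin genes, 5 were tested and none differed at an unadjusted p under 0.05. Hapln4, a link protein of later perineuronal nets, was at 6.50 ± 2.25 TPM in WT against 4.82 ± 1.04 TPM in the null, Matn2 at 35.6 ± 9.40 and 30.0 ± 1.18 TPM, and Tnxb at 5.57 ± 1.97 and 4.45 ± 0.0551 TPM (SD, n = 3 each). Hapln2, a link protein of nodes of Ranvier, was at 0.25 to 0.42 TPM in WT and 0.14 to 0.32 TPM in the null, under the filter. Matn1 and Matn3 were under it too. Matn1 was at 0.54 to 0.71 TPM in WT and at 0.15 to 0.27 TPM in the null, without overlap. Matn3 overlapped, at 0.11 to 0.21 and 0.17 to 0.24 TPM.

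Hyaluronan is made by Has1, Has2 and Has3 from a sugar that Ugdh supplies, and Ugdh serves chondroitin sulfate as well. Ugdh was at 20.94, 22.15 and 25.33 TPM in WT and at 28.96, 29.05 and 27.78 TPM in the null. Every null sample was above every WT sample, 1.25-fold at the mean (log2 difference 0.32, SE 0.083, unadjusted p = 0.00685, adjusted p = 0.669 by limma). It was the only 1 of the 12 hyaluronan genes with an unadjusted p under 0.05. Has2, the synthase most used in embryos, was at 0.74, 0.66 and 0.93 TPM in WT and at 0.95, 1.55 and 1.52 TPM in the null, near the filter. Hyal2, a hyaluronidase, overlapped, at 33.7 ± 4.69 and 29.1 ± 3.31 TPM (SD, n = 3 each).

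Of 12 genes that build the chondroitin chain, none differed at an unadjusted p under 0.05. Xylt1, which starts the chain, was at 5.91 ± 0.318 TPM in WT against 7.16 ± 0.597 TPM in the null, and Chpf, which helps extend it, at 60.6 ± 2.05 and 55.8 ± 3.32 TPM. Chpf2 was at 17.4 ± 4.37 and 13.1 ± 2.43 TPM (SD, n = 3 each). Of 12 tested genes for sulfation and epimerization, Ust, which adds sulfate to uronic acid, was lower and Dsel, which converts chondroitin towards dermatan, was higher at an unadjusted p under 0.05. Ust was at 15.89, 15.16 and 15.34 TPM in WT and at 14.61, 12.40 and 11.79 TPM in the null (adjusted p = 0.669 by limma). Dsel was at 7.37, 7.87 and 8.38 TPM in WT and at 9.01, 11.07 and 9.18 TPM in the null (adjusted p = 0.671 by limma). Papss2, which makes the sulfate donor, overlapped, at 5.02 ± 0.713 and 4.32 ± 0.736 TPM (SD, n = 3 each).

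Among 13 proteases and inhibitors, Adamts4 had the smallest p. It encodes an aggrecanase that cuts brevican and other lecticans, and oligodendrocytes express it. It was at 3.38, 3.86 and 2.78 TPM in WT and at 1.39, 1.94 and 1.95 TPM in the null. The groups did not overlap, with the null mean 1.90-fold lower (log2 difference -0.65, SE 0.17, unadjusted p = 0.00696, adjusted p = 0.669 by limma). Its substrate Bcan overlapped between the genotypes. The other 12 had no unadjusted p under 0.05, among them the metalloprotease inhibitors Timp3, at 91.2 ± 10.7 and 80.4 ± 7.61 TPM, and Timp2, at 149 ± 5.11 and 145 ± 8.43 TPM (SD, n = 3 each).

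Of 16 receptors and ligands of the matrix proteins, 1 had an unadjusted p under 0.05. Nfasc encodes neurofascin, an adhesion protein of axons and oligodendrocytes that binds tenascin-R. It was at 47.67, 45.65 and 34.13 TPM in WT and at 25.55, 26.75 and 26.98 TPM in the null, 1.61-fold lower, without overlap (log2 difference -0.65, SE 0.13, adjusted p = 0.457 by limma). Ptn encodes pleiotrophin, the growth factor that binds Ptprz1. It was at 914 ± 40.7 TPM in WT against 1006 ± 68.9 TPM in the null, and Cntn1, the contactin that binds both Ptprz1 and tenascin-R, at 138 ± 14.9 and 127 ± 13.9 TPM (SD, n = 3 each). Both overlapped between the genotypes.

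Of 17 other proteoglycan genes of the brain, 3 were lower and 1 higher at an unadjusted p under 0.05, beside 3.13% and 4.32% of all genes. Spock2, a testican, was at 250 ± 10.9 TPM in WT against 229 ± 3.64 TPM in the null, and Tmeff2 at 38.2 ± 1.51 and 34.0 ± 2.15 TPM. Sdc4, a syndecan, was at 20.8 ± 2.36 and 15.8 ± 3.75 TPM with overlapping samples. Gpc2, a glypican of immature neurons, was at 48.4 ± 4.81 and 58.2 ± 6.64 TPM (SD, n = 3 each). These differences were between 1.09-fold and 1.32-fold, smaller than those of Tnr and Matn4. Cspg4, which encodes the NG2 proteoglycan of precursors, overlapped, at 14.2 ± 2.51 and 15.3 ± 1.78 TPM.

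**Figure D5:**
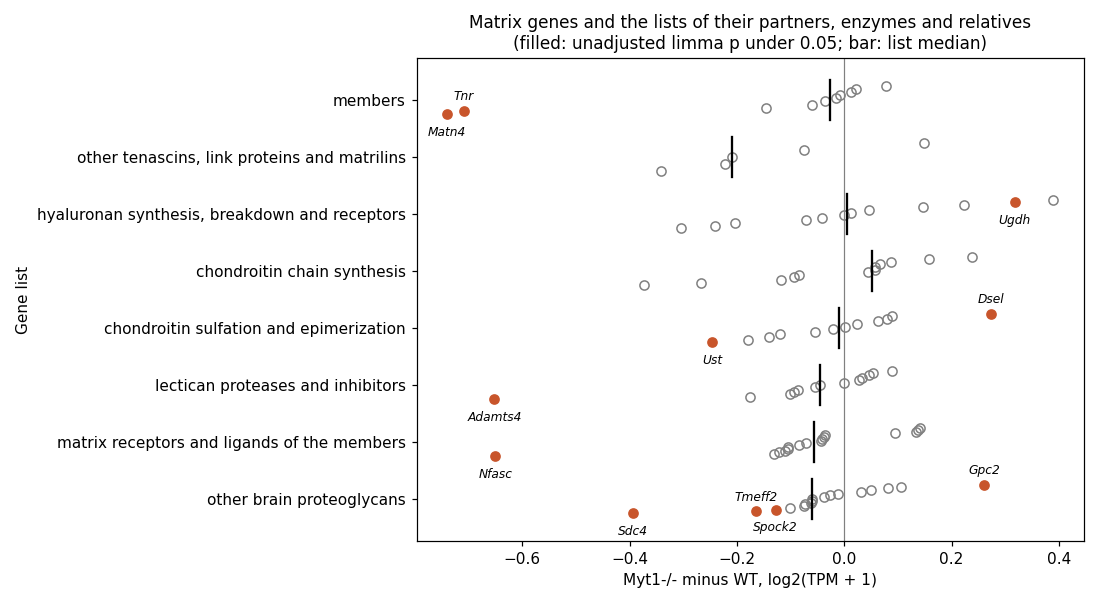
Difference between null and WT on the log2(TPM + 1) scale (horizontal axis) for each tested gene of the 10 matrix genes and the 7 lists; filled points have an unadjusted limma p under 0.05 and bars are list medians. Matn4 and Tnr lie at -0.74 and -0.71, next to Adamts4 and Nfasc at -0.65, and the list medians lie between -0.21 and 0.051; the lowest, of other tenascins, link proteins and matrilins, is -0.012 without WT replicate 3.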

How the data were processed

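The authors deposited TPM, given to 2 decimals, in 1 table of 55487 Ensembl genes. RSEM, DESeq2 and GRCm38.p6 are named, without their role, per the submitters' processing notes, and libraries were made with a TruSeq kit, per the labels' protocols. In the sources used here, the aligner, annotation release and use of strand are not given. Column sums lay between 993139 and 994687 TPM. The table holds 1 column of per-sample values with no sample among the labels, which was not used.

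Genes with a mean of at least 1 TPM over the 6 samples (15962) were fitted with limma 3.58.1 in R 4.3.3, with a variance trend, on log2(TPM + 1), a scale that understates the change of low genes. The model held genotype alone, and two-sided p-values were adjusted over all genes tested (Benjamini-Hochberg), and intervals are limma's 95% intervals. Folds are ratios of mean TPM. No count test was possible. Ratios within libraries were compared with exact permutation tests in scipy 1.17.1. Named are the 10 genes, Myt1, the 3 genes with the smallest p in each list, the highest gene of each marker list, the nearest profiles, and genes the text points to after their values were seen. The genes and lists were chosen with earlier results of these data known. Positions are those of GENCODE M21 on GRCm38, where 55141 IDs matched.

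The fit was run on simulated data, with 200 of 15962 genes changed in each of 5 runs. It called 51.1% of 1.5-fold, 78.1% of 2-fold and 92.8% of 4-fold changes in TPM + 1, with 36 false calls in all. The simulated noise was normal and independent between genes, with spreads already smoothed by limma, so these shares need not hold for the real samples. In the real samples no gene was called. Mobp, Bcas1 and Mbp, all lower by more than 4-fold on this scale, had adjusted p-values of 0.140, 0.140 and 0.231 by limma. The shares are thus no measure of what the fit could call in these samples. Alternatives were another pseudocount, filters, variance priors and scalings, replicate number as a block, and leaving out each sample.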

Additional observations from a re-analysis of the deposited data

How the results depend on the processing

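In all 15 alternatives run, Tnr and Matn4 were lower in the null and had an unadjusted p under 0.05, and no other of the 10 genes did. Their adjusted p by limma lay between 0.109 and 0.607 for Tnr and between 0.184 and 0.607 for Matn4, so neither was called under any of them. The number of genes called was 1 with a pseudocount of 0.1 and 1 with robust empirical Bayes (the pseudogene Gm43493 in both), and 0 to 7 with 1 library left out; the 7 came without WT replicate 2, and 1 each without WT replicate 3 and null replicates 1 and 2. At an unadjusted p under 0.05, leaving out 1 library gave 305 to 751 lower genes (305 and 324 without null replicates 3 and 2) and 387 to 910 higher genes (387 and 414 without null replicates 2 and 3). The sign of 7 of the other 8 genes turned with 1 library left out, where the log2 difference ran from -0.13 to 0.19 for Acan, -0.16 to 0.0070 for Bcan, -0.046 to 0.051 for Cspg5, -0.049 to 0.019 for Ncan, -0.13 to 0.082 for Ptprz1, -0.047 to 0.18 for Tnc and -0.076 to 0.095 for Vcan. Hapln1 ran from -0.28 to -0.022, the latter without WT replicate 1. Cspg5 was -0.013 after median-ratio and -0.0016 after upper-quartile scaling. The difference in the Acan to Vcan ratio ran from -0.098 to 0.26, negative without WT replicates 1 or 2. The median of the chain synthesis list was 0.027 after median-ratio scaling and -0.030 to 0.050 with 1 library left out, that of other proteoglycans -0.068 to -0.0031, and that of other tenascins, link proteins and matrilins -0.33 to -0.012, the latter without WT replicate 3. The other 4 list medians ran from -0.061 to 0.074 (hyaluronan), -0.066 to 0.049 (sulfation), -0.079 to 0.059 (proteases) and -0.089 to -0.013 (receptors and ligands). For these, the cause was not tested.

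The labels share replicate numbers across genotypes without saying what a number marks, and deviations of same-numbered samples correlated at 0.031, -0.070 and 0.061, so the numbers were not taken as pairs. With replicate number as a block, 0 genes were called, 489 were lower and 651 higher at an unadjusted p under 0.05, Tnr had an adjusted p of 0.543 and Matn4 an adjusted p of 0.543 by limma, and no call changed.

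TPM hold no read depth, so counting error is unknown, and Acan, near 2 TPM, had the widest interval of the 10.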

Other observations

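Among the cartilage and notochord markers that were set beside Acan, some genes were lower in the null although Acan was not. Of 12 genes, 8 were tested, none passed an adjusted p of 0.05 by limma, and 2 were lower at an unadjusted p under 0.05, beside 3.13% of all genes. Col11a2, which encodes a chain of collagen XI, was at 9.97, 5.58 and 7.03 TPM in WT and at 3.90, 3.66 and 2.81 TPM in the null (log2 difference -0.91, SE 0.21, adjusted p = 0.626 by limma). Col9a3, which encodes a chain of collagen IX, was at 24.80, 21.68 and 17.15 TPM in WT and at 15.73, 15.10 and 15.28 TPM in the null (log2 difference -0.43, SE 0.13, adjusted p = 0.669 by limma). In both, all null samples lay below all WT samples. Col9a2 and Col11a1 overlapped between the genotypes, at 38.01 to 44.18 and 16.74 to 29.75 TPM in WT and 39.48 to 40.86 and 20.50 to 24.30 TPM in the null. Matn1, the matrilin of cartilage, was under the filter, at 0.54, 0.71 and 0.55 TPM in WT and at 0.15, 0.21 and 0.27 TPM in the null. These genes were chosen for this description after their values were seen.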
